A study of Homo sapiens with 5 samples.

Results

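A group of 10 genes of carbonyl, aldehyde and glucuronide metabolism were followed through the CCT2 knockdown libraries: the aldo-keto reductases AKR1B1, AKR1B10, AKR1C1, AKR1C2 and AKR1C3, the aldehyde dehydrogenases ALDH1A3, ALDH2, ALDH3A1 and ALDH3A2, and the glucuronosyltransferase UGT1A6. They are 10 of the 15187 genes listed in both deposited expression tables, and all 10 passed the filter on low counts, which kept 13123 genes. The group was chosen by the measured values themselves: AKR1C2, ALDH1A3, ALDH3A1 and UGT1A6 were selected on large changes with the knockdown and large differences between the tables, and relatives were added. Their changes are therefore given as a description, with no test.

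Aldo-keto reductases use NADPH to reduce aldehydes and ketones to alcohols. The AKR1C enzymes act on steroids and prostaglandins as well as on reactive carbonyls, and the AKR1B enzymes reduce glucose, retinal and lipid aldehydes. Aldehyde dehydrogenases carry the opposite chemistry to its end, oxidising aldehydes to acids, and UGT1A6 couples small phenols to glucuronic acid so that they can be excreted. Many of these genes are textbook targets of the transcription factor NRF2, which binds antioxidant response elements, and ALDH3A1 and UGT1A6 also of the aryl hydrocarbon receptor. In squamous epithelium they belong to the defence against smoke constituents and other electrophiles.

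The cells were SAS, an established squamous carcinoma line of the human tongue, and all libraries were poly(A)-selected RNA-seq. The comparison was between 2 control libraries with a control shRNA (shCtrl 1 and 2) and 3 libraries with shRNA against CCT2 (shCCT2 1, 2 and 3), CCT2 being a subunit of the cytosolic chaperonin that folds actin and tubulin. The first table holds shCtrl 1 with shCCT2 1 and 2, and the second table holds shCtrl 2 with shCCT2 3. The labels do not say whether the libraries came from separate cultures or how many hairpins were used, so the spread between them may be technical, and table, culture and time cannot be told apart.

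Library totals ran from 16913585 to 18156592 estimated counts. CCT2 stood at 629.9 and 642.4 CPM (counts scaled to library size, here by the trimmed mean of M-values, TMM) in the controls and at 296.1, 272.4 and 260.2 CPM in shCCT2 1, 2 and 3. All 8 squamous epithelial markers were present, and their summed level was 5027 CPM in shCtrl 1, 1327 CPM in shCtrl 2 and 2041 to 4249 CPM with the knockdown. CDH1, the epithelial cadherin, was at 251 CPM in shCtrl 1 and 10.6 CPM in shCtrl 2. The control libraries thus stood apart in more than the genes described here. The squamous markers did not move alike. TP63 was at 224 and 116 CPM in shCtrl 1 and 2, and SFN at 460 and 292 CPM. KRT6A ran the other way, at 40.3 and 64.8 CPM, and reached 630 CPM in shCCT2 3. Of 5 fibroblast markers only COL1A1 and PDGFRB were in both tables, summing to 3.004 to 11.8 CPM. Endothelial markers summed to 1.31 to 7.48 CPM. Leukocyte markers summed to 44.5 to 122 CPM and were mostly CD68, the lysosomal glycoprotein. PTPRC was at 6.51 CPM in shCCT2 2, on 109 counts, and at 0.0546 to 0.648 CPM in the other libraries. CD14 was also highest in shCCT2 2, at 15.5 CPM against 6.23 CPM in shCtrl 1, whereas CD68 and CSF1R were not. The part of these marker differences in the results below was not tested.

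The AKR1C genes, which lie together on chromosome 10, are near copies, which bears on how their reads could be counted. AKR1C1 and AKR1C2 coding sequences, both 972 bases long in the GENCODE v29 transcripts, differed at 19 bases and were 98.0% identical, and their last 189 coding bases (784 to 972) were the same. AKR1C3 differed from AKR1C2 at 87 bases and from AKR1C1 at 83. Coding positions 73 to 162, where the family members can be told apart, are shown, with capitals at bases that differ from AKR1C2.
AKR1C1: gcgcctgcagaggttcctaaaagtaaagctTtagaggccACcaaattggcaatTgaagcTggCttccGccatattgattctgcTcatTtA
AKR1C2: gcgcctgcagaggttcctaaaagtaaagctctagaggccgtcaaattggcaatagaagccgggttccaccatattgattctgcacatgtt
AKR1C3: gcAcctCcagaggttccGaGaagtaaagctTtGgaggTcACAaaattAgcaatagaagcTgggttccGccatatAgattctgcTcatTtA
Over these 90 bases AKR1C1 carried 10 differences and AKR1C3 carried 17.

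Of all 100-base windows of the coding sequence, 26.7% for AKR1C2, 21.0% for AKR1C1 and 9.74% for AKR1C3 also occurred in another annotated gene. The share was 43.0% for UGT1A6, whose last exons are common to the UGT1A genes, and 40.1% for ALDH2. It was 3.52% for AKR1B10 and 0% for AKR1B1, ALDH1A3, ALDH3A1 and ALDH3A2. In the deposited counts AKR1C1, AKR1C2 and UGT1A6 each had fractional values in 4 of the 5 libraries and AKR1C3 in 1, whereas the other 6 genes, ALDH2 included, were whole numbers throughout. AKR1C1 and AKR1C2 had 16.96 and 7.04 counts in shCtrl 1, which sum to 24, and 83.28 and 288.72 in shCCT2 3, which sum to 372. Levels of the single AKR1C genes and of UGT1A6 are uncertain to that extent. Sums are given for the AKR1C genes, and none for UGT1A6 with the other UGT1A genes.

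The similarity extended upstream. In the RefSeq promoter table (GRCh38.p14), which held 11 entries for 7 of the 10 genes and none for AKR1B10, ALDH2 and ALDH3A1, the 250 bases before the AKR1C1 and AKR1C2 starts shared an identical run of 245 bases. The distal parts that lie before any annotated exon of the same gene are shown in lower case throughout, and exons of other genes were not checked. They are AKR1C1 from chr10:4963165-4963252 on the plus strand and AKR1C2 from chr10:5004024-5004107 on the minus strand.
AKR1C1: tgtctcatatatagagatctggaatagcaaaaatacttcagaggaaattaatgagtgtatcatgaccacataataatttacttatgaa
AKR1C2: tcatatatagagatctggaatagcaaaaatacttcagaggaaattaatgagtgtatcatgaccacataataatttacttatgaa
Short motifs were searched on both strands of those 250 bases. The antioxidant response element core TGACNNNGC was found in 10.9% of 35116 promoters and in 1 of the 11 entries, which belongs to UGT1A6. The AP-1 site TGANTCA was in 6.57% of promoters and in 0 of the 11 entries. The aryl hydrocarbon receptor core GCGTG was in 32.2% of promoters and in 5 of the 11 entries, which belong to AKR1B1, ALDH1A3, ALDH3A2 and UGT1A6. The 2 AKR1B1 entries overlap and hold the same match, which is thus counted in both. The UGT1A6 upstream region chr2:233692640-233692865 on the plus strand is shown with the response element match in capitals, as the only such match among these entries.
UGT1A6: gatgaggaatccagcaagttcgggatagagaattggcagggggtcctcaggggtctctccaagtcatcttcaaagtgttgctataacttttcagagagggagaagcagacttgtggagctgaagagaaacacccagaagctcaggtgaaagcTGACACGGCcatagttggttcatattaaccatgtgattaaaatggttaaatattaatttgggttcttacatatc
A match describes letters and is not a binding site.

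AKR1C2, which reduces dihydrotestosterone and other ketosteroids, was almost unread in the first table and high in 1 library of the second table. Its level was 0.406 CPM in shCtrl 1 and 783.5 CPM in shCtrl 2, against 0.480, 0.119 and 15.8 CPM in shCCT2 1, 2 and 3. In counts this was 7.04 and 14777.31 in the controls and 8.15, 2 and 288.72 with the knockdown. The groups overlapped, since shCtrl 1 lay among the knockdown libraries, and shCtrl 2 stood above every other library. Within the second table the control was 49.7-fold above shCCT2 3 (95% exact interval 44.2 to 56.0, which like all intervals here covers counting error only). Only 1 of the 13123 tested genes had a lower log2 change there, log2 changes of single libraries being computed with 0.5 CPM added. Within the first table the ratio of control to shCCT2 2 was 3.38 with an interval of 0.644 to 33.4, so no difference was detectable at that depth.

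AKR1C1, a progesterone-reducing relative, ranked the 5 libraries in the same order. It was at 0.978 and 128 CPM in shCtrl 1 and 2 and at 0.993, 0.119 and 4.55 CPM in shCCT2 1, 2 and 3. Again shCtrl 2 was the high library, and shCtrl 1 lay within the knockdown range. The control was 28.3-fold above shCCT2 3 (22.8 to 35.7), and the 2 counts in shCCT2 2 gave a ratio of 8.21 with an interval of 1.95 to 73.3.

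AKR1C3, which makes testosterone from androstenedione and prostaglandin F from prostaglandin D, had the most reads of its cluster in the first table. Its levels were 6.46 and 57.2 CPM in the controls and 3.004, 3.34 and 5.35 CPM with the knockdown. All knockdown libraries lay below both controls, though shCCT2 3 came close to shCtrl 1. The control was 2.15-fold (1.53 to 3.06) above shCCT2 1, 1.93-fold (1.39 to 2.71) above shCCT2 2 and 10.7-fold (8.69 to 13.3) above shCCT2 3. The fitted change over all 5 libraries, with the table as a term, was -2.14 ± 0.58 (log2, SE). It was -1.02 without shCtrl 2 or without shCCT2 3, and -3.39 without shCtrl 1.

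Summed over AKR1C1, AKR1C2 and AKR1C3, which removes the splitting of reads among them, the level was 7.84 and 969.1 CPM in the controls and 4.48, 3.58 and 25.7 CPM with the knockdown. The log2 changes of the sum were -0.75, -1.03 and -5.21 in shCCT2 1, 2 and 3. AKR1C2 made up 80.8% of the summed counts in shCtrl 2 and 61.4% in shCCT2 3, and 3.33% to 10.7% in the first table.

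**Figure D1:**
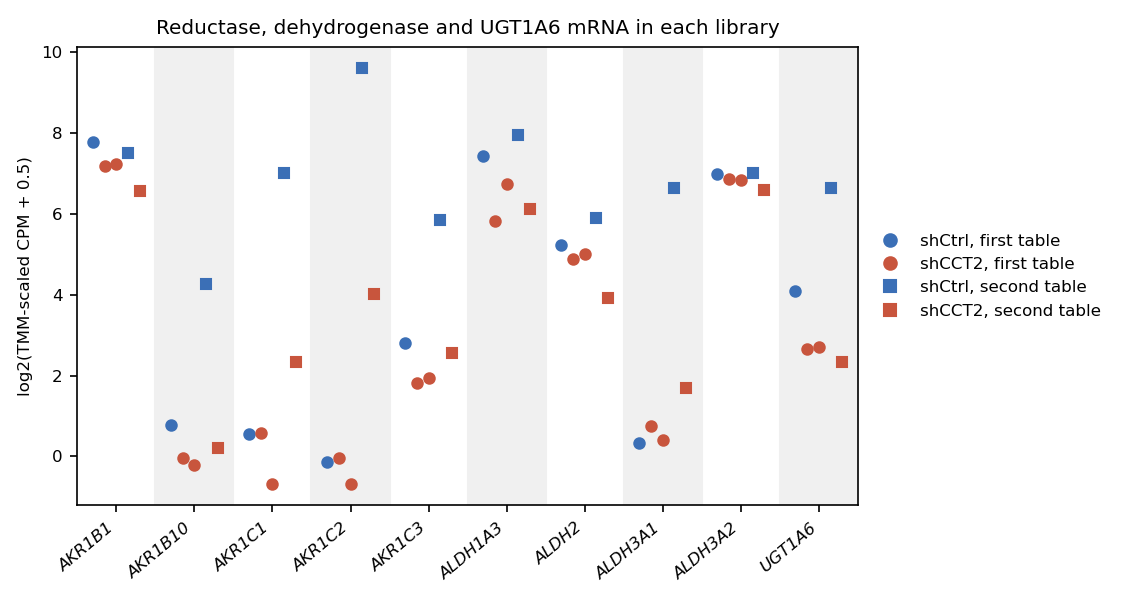
Level of each gene in each library, as log2 of TMM-scaled CPM plus 0.5 on the y axis and the 10 genes on the x axis; blue marks are shCtrl and red marks shCCT2, circles are the first table and squares the second, 1 mark per library. AKR1C2 stands at 783.5 CPM in shCtrl 2 and at or below 15.8 CPM in the other 4 libraries, whereas the marks of AKR1B1 and ALDH3A2 lie close together.

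The AKR1B pair differed in pattern. AKR1B10, a reductase of retinal and lipid aldehydes, was at 1.21 and 18.9 CPM in the controls and 0.471, 0.358 and 0.655 CPM in shCCT2 1, 2 and 3. All knockdown libraries lay below both controls, but they rested on 8, 6 and 12 counts. The control was 2.57-fold (1.09 to 6.71), 3.38-fold (1.32 to 10.2) and 28.8-fold (16.3 to 56.3) above shCCT2 1, 2 and 3. Its fitted change was -3.17 ± 0.86, and it was -1.53 without shCtrl 2 or without shCCT2 3 and -4.80 without shCtrl 1.

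AKR1B1, the aldose reductase of the polyol pathway, was lower with the knockdown in both tables. Its levels were 218 and 183 CPM in the controls and 146, 149 and 94.6 CPM with the knockdown, with no overlap. The control was 1.495-fold (1.42 to 1.57), 1.47-fold (1.39 to 1.54) and 1.93-fold (1.83 to 2.05) above shCCT2 1, 2 and 3, further apart in the second table than counting error covers, and the fitted change was -0.73 ± 0.19. Unlike the AKR1C genes it was lower in shCtrl 2 than in shCtrl 1, at 0.838 of the level.

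Among the dehydrogenases, ALDH1A3, which makes retinoic acid from retinal, was lower in every knockdown library than in its control. It stood at 173 and 247 CPM in the controls and at 56.5, 107 and 69.3 CPM in shCCT2 1, 2 and 3. The groups did not overlap, and shCCT2 2 was the highest of the knockdown libraries. The control was 3.06-fold (2.84 to 3.29) above shCCT2 1, 1.62-fold (1.53 to 1.72) above shCCT2 2 and 3.57-fold (3.35 to 3.8) above shCCT2 3. The 2 knockdown libraries of the first table thus differed from each other by more than counting error, and the fitted change was -1.41 ± 0.33. The tables differed less for ALDH1A3 than for most of the group, as the change in shCCT2 3 minus the mean of the other two was -0.68 log2.

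ALDH3A1, a dehydrogenase of aromatic and medium-chain aldehydes known from cornea and squamous epithelium, took the AKR1C2 pattern. It was at 0.7496 and 99.99 CPM in the controls and at 1.18, 0.836 and 2.73 CPM with the knockdown. All knockdown libraries lay above shCtrl 1 and far below shCtrl 2. The log2 changes were 0.43, 0.10 and -4.96. In the first table the ratio of control to knockdown had intervals of 0.291 to 1.34 and 0.388 to 2.06, and no difference was detectable from its 13, 20 and 14 counts. In the second table the ratio was 36.6 (27.7 to 49.5). The fitted change of -2.76 ± 1.42 became 0.42 without shCtrl 2 and 0.42 without shCCT2 3.

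ALDH2, the mitochondrial enzyme that clears acetaldehyde, was at 37.3 and 59.6 CPM in the controls and at 28.8, 31.9 and 14.7 CPM in shCCT2 1, 2 and 3. No knockdown library reached either control. The log2 change was -0.37 and -0.22 in the first table and -1.98 in the second table, where the control was 4.04-fold higher (3.54 to 4.63). Its fitted change was -1.06 ± 0.41, and it was -0.30 without shCtrl 2 or without shCCT2 3 and -1.99 without shCtrl 1.

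ALDH3A2, the fatty aldehyde dehydrogenase of the endoplasmic reticulum, lies near ALDH3A1 on chromosome 17 but did not share its range. It was at 127 and 129 CPM in the controls and 117, 114 and 96.0 CPM with the knockdown. The groups did not overlap, yet the log2 changes of -0.12, -0.15 and -0.42 were the smallest of the 10 in the second table, and the fitted change was -0.26 ± 0.18 (-0.14 without shCtrl 2 or without shCCT2 3, -0.39 without shCtrl 1).

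UGT1A6 was lower than its control in every knockdown library. Its levels were 16.5 and 99.9 CPM in the controls and 5.78, 6.001 and 4.59 CPM in shCCT2 1, 2 and 3, resting on 84 to 1884.47 counts. The 3 knockdown libraries lay between 4.59 and 6.001 CPM, while their controls differed 6.06-fold (5.35 to 6.88). The control was 2.86-fold (2.26 to 3.63), 2.74-fold (2.17 to 3.47) and 21.8-fold (17.5 to 27.4) above shCCT2 1, 2 and 3. In shCCT2 2 only 15 tested genes had a lower log2 change, and the fitted change was -2.82 ± 0.69. That value was -1.48 without shCtrl 2 or without shCCT2 3, and -4.41 without shCtrl 1.

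**Figure D2:**
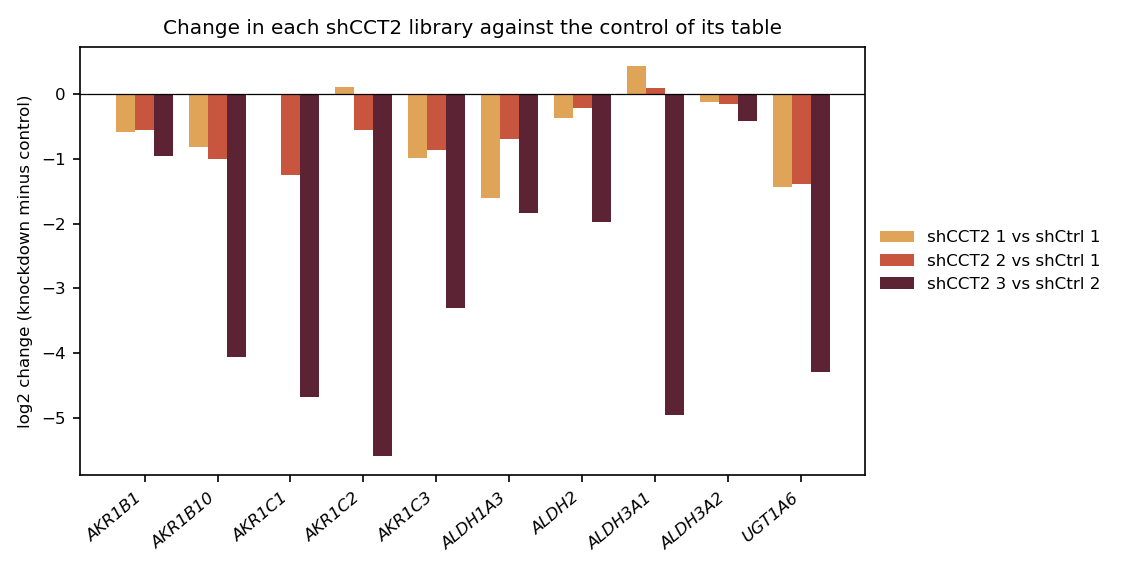
Log2 change of each gene in each knockdown library against the control of its own table, from TMM-scaled CPM plus 0.5; 1 bar per library, with no error bar since each is a single pair of libraries. The shCCT2 3 bars of AKR1C1, AKR1C2, AKR1B10, ALDH3A1 and UGT1A6 pass -4, while those of AKR1B1 and ALDH3A2 are -0.95 and -0.42.

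Counted over the group, 7 of the 10 genes were lower in all 3 knockdown libraries than the control of their table, as were 21.4% of all tested genes. The same 7 had all knockdown libraries below both controls, as did 8.28% of tested genes, and the exceptions were AKR1C1, AKR1C2 and ALDH3A1. Counts of genes over 2-fold apart use values with 0.5 CPM added, which shrinks the change of genes with few reads. On that scale ALDH1A3 and UGT1A6 were over 2-fold below the control in shCCT2 1, as were 3.27% of tested genes. By the plain ratios given above AKR1B10 and AKR1C3 were too. In shCCT2 2, AKR1C1 and UGT1A6 were over 2-fold below with 0.5 CPM added, beside 0.61% of tested genes, and by the plain ratio also AKR1B10 and AKR1C2, on 6 and 2 counts. In shCCT2 3, 8 of the 10 were, all but AKR1B1 and ALDH3A2, beside 13.8%. The median log2 change of the 10 genes was -0.47, -0.62 and -3.68 in shCCT2 1, 2 and 3, and that of all tested genes -0.002, -0.001 and -0.022. Since the genes were picked on these contrasts, their counts support nothing beyond the description. Pooled into 1 sum, the 10 genes made 581.5 and 1806 CPM in the controls and 359.9, 412.2 and 308.3 CPM with the knockdown. In bulk RNA, fewer cells that express a gene and less of its RNA per cell cannot be told apart.

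Across all genes, edgeR's quasi-likelihood test with 2 residual degrees of freedom called 0% lower (0 of 13123) and 0 higher after Benjamini-Hochberg adjustment. No gene had an adjusted p below 0.542, while 600 genes were lower and 372 higher at an unadjusted p under 0.05. CCT2 itself, the target of the knockdown, was not called by edgeR either (fitted change -1.22 ± 0.18, adjusted p 0.542). A missing call is therefore no evidence that a gene did not change. DESeq2's Wald test called 11 of the 11850 genes it gave an adjusted p lower, 0.0928%, and 2 higher. CCT2 was among the 11 (adjusted p 3.9e-05 by the Wald test). ALDH1A3 and UGT1A6 were also among the 11, a call made on the contrast they were chosen by.

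For AKR1C2, AKR1C1 and ALDH3A1 the controls differed from each other by more than any knockdown library differed from its control. AKR1C2 was 1941-fold higher in shCtrl 2 than in shCtrl 1 (942 to 4829). On the log2 scale with 0.5 CPM added this was the largest control difference of the 13123 tested genes, at 9.76, while by the plain ratio it was not: SRGN, with 1 count in shCtrl 1, was higher, and OSCAR, CX3CL1 and NID1 had 0 counts there. ALDH3A1 followed at 133-fold (77.8 to 251.0) and AKR1C1 at 131-fold (81.6 to 225). AKR1B10 was 15.6-fold, AKR1C3 8.86-fold and UGT1A6 6.06-fold higher. These 6 were over 2-fold higher in shCtrl 2, as were 17.3% of tested genes, whereas ALDH2 (1.60-fold), ALDH1A3 (1.43-fold) and ALDH3A2 (1.01-fold) were not. AKR1C2 ranked 12751 by counts in shCtrl 1 and 103 in shCtrl 2, where it took 0.0876% of the library. In the same libraries the summed squamous markers stood at 5027 and 1327 CPM.

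Set against the other control, shCCT2 3 still held 39.1-fold (18.7 to 98.1) as much AKR1C2 as shCtrl 1, 4.62-fold (2.72 to 8.31) as much AKR1C1 and 3.64-fold (1.95 to 7.31) as much ALDH3A1. AKR1C3, at 0.828 of the shCtrl 1 level (0.625 to 1.10), and AKR1B10, at 0.541 (0.243 to 1.15), did not differ from it beyond counting error. UGT1A6, at 0.278 (0.215 to 0.356), was below it. The direction for AKR1C1, AKR1C2 and ALDH3A1 in shCCT2 3 thus depended on which control it was set against.

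**Figure D3:**
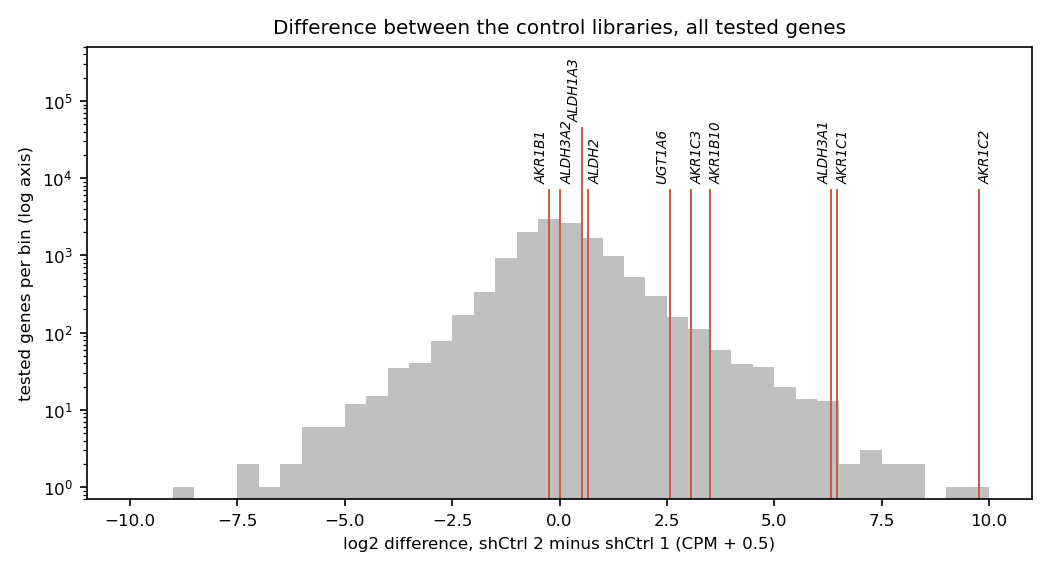
Log2 difference between the control libraries (shCtrl 2 minus shCtrl 1, TMM-scaled CPM plus 0.5) for all 13123 tested genes, as a grey histogram with the number of genes per bin on a log axis; red lines mark the 10 genes. AKR1C2 lies at the right end at 9.76, ALDH3A1 and AKR1C1 at 6.33 and 6.45, and AKR1B1, ALDH3A2, ALDH1A3 and ALDH2 between -0.25 and 0.67.

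The rest of these pathways was read from 7 lists, and no list member passed edgeR's or DESeq2's adjusted threshold, so the values that follow are levels and fitted log2 changes of genes that did not pass. At an unadjusted p under 0.05 edgeR had 1 of 11 other aldehyde dehydrogenases, 2 of 8 aryl hydrocarbon receptor genes and 3 of 25 NRF2 genes. None came from the other 4 lists. Beside these, 600 of all 13123 tested genes were lower and 372 higher at that threshold. The median fitted change of all tested genes was -0.016.

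Of the other aldo-keto reductases 2 were tested, with fitted changes on either side of 0. AKR7A2, which reduces succinic semialdehyde, was at 44.7 and 44.5 CPM in the controls and 39.4, 44.7 and 86.2 CPM with the knockdown, and AKR1A1, the general aldehyde reductase, had a fitted change of -0.32 ± 0.22. Of the other aldehyde dehydrogenases 11 were tested, 8 with a fitted change below 0 and 3 above, and a median of -0.41. ALDH6A1, of valine breakdown, was at 18.3 and 26.5 CPM in the controls and 8.54, 14.4 and 6.86 CPM with the knockdown (-1.23 ± 0.41), without overlap. ALDH1L2, the mitochondrial folate enzyme, was at 35.1 and 48.2 CPM in the controls and 47.8, 28.9 and 5.30 CPM with the knockdown, so only shCCT2 3 was far from its control. ALDH3B1, a membrane-bound relative, was at 7.90 and 19.0 CPM in the controls and 4.95, 9.31 and 7.92 CPM with the knockdown, which overlap (-0.65 ± 0.44).

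Of the 20 glucuronidation genes 7 were in both tables and 5 were tested, 3 below 0 and 2 above, with a median of -0.07. The 5 were UGT8, UGDH, UGP2, SLC35D1 and GUSB, so no UGT1A or UGT2 gene beside UGT1A6 was tested. UGT8, which makes galactosylceramide, had the largest fitted value, -1.04 ± 1.0. It was at 0.195 and 25.8 CPM in the controls and 0.391, 0.728 and 4.35 CPM with the knockdown, so that it was highest in shCtrl 2 and lowest in shCtrl 1. UGDH, which makes the UDP-glucuronic acid that UGT1A6 uses, was at 39.7 and 56.6 CPM in the controls and 31.1, 37.8 and 35.9 CPM with the knockdown (-0.40 ± 0.22). GUSB, the lysosomal glucuronidase that removes the sugar, had a fitted change of 0.32 ± 0.21. All 12 other carbonyl and quinone reductases were tested, 7 below 0 and 5 above, with a median of -0.11. PTGR1, which inactivates prostaglandins and lipid enals, was at 60.9 and 106 CPM in the controls and 53.1, 53.3 and 60.1 CPM with the knockdown (-0.47 ± 0.21). CBR4, a mitochondrial carbonyl reductase, was at 14.6 and 36.2 CPM and then at 12.0, 13.4 and 15.6 CPM (-0.65 ± 0.31), and CBR3, a cytosolic one, had a fitted change of -0.44 ± 0.43.

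Of the aryl hydrocarbon receptor list 8 genes were tested, 5 below 0 and 3 above, with a median of -0.15. Its hydroxylases had the lowest fitted values. CYP1A1 was at 0.634 and 41.8 CPM in the controls and 0.353, 0.298 and 4.26 CPM with the knockdown, a fitted change of -2.40 ± 0.61. CYP1B1 was at 12.3 and 30.6 CPM and then at 5.83, 6.54 and 8.61 CPM, with no overlap and a fitted change of -1.36 ± 0.31. ARNT, the receptor's partner, had a fitted change of -0.44 ± 0.26. Of the 8, 2 were over 2-fold higher in shCtrl 2 than in shCtrl 1, beside 17.3% of all tested genes. AHRR and TIPARP, named after their values were seen, were lower in shCtrl 2. AHRR was at 44.3 and 6.36 CPM in the controls (-0.22 ± 0.24), and TIPARP at 204 and 72.7 CPM (0.37 ± 0.20).

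Of the NRF2 regulators and other targets all 25 were tested, 18 below 0 and 7 above, with a median of -0.20, and 8 were lower in all 3 knockdown libraries (21.4% of all tested genes were). PIR, an iron-binding nuclear protein, was at 9.51 and 60.6 CPM in the controls and 5.77, 3.999 and 15.6 CPM with the knockdown (-1.42 ± 0.33). ABCC3, an exporter of glucuronides, was at 12.7 and 106 CPM and then at 6.48, 9.61 and 44.5 CPM (-0.93 ± 0.27). HMOX1, haem oxygenase, was at 3.81 and 56.2 CPM and then at 5.48, 2.69 and 15.9 CPM (-0.83 ± 0.55). Each of the 3 was highest in shCtrl 2, as the AKR1C genes were. Of the 25, 6 were over 2-fold higher in shCtrl 2 than in shCtrl 1, as were 17.3% of all tested genes. NQO1, the quinone reductase most used as an NRF2 readout, was named after its values were seen. It did not share that range, with 309 and 326 CPM in the controls and 390, 216 and 245 CPM with the knockdown.

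Of the retinoid list, which surrounds ALDH1A3, 16 genes were tested, 13 below 0 and 3 above, with a median of -0.45. Of these, 9 were lower in all 3 knockdown libraries (21.4% of all tested genes were). CRABP2, which carries retinoic acid to the nucleus, was at 122 and 13.2 CPM in the controls and 82.7, 123 and 0.983 CPM with the knockdown. CYP26B1, which degrades retinoic acid, was at 8.88 and 23.5 CPM and then at 3.36, 7.22 and 10.2 CPM (-0.95 ± 0.40). DHRS3, which reduces retinal, was at 88.3 and 168 CPM and then at 13.1, 78.4 and 90.6 CPM (-0.92 ± 0.64).

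**Figure D4:**
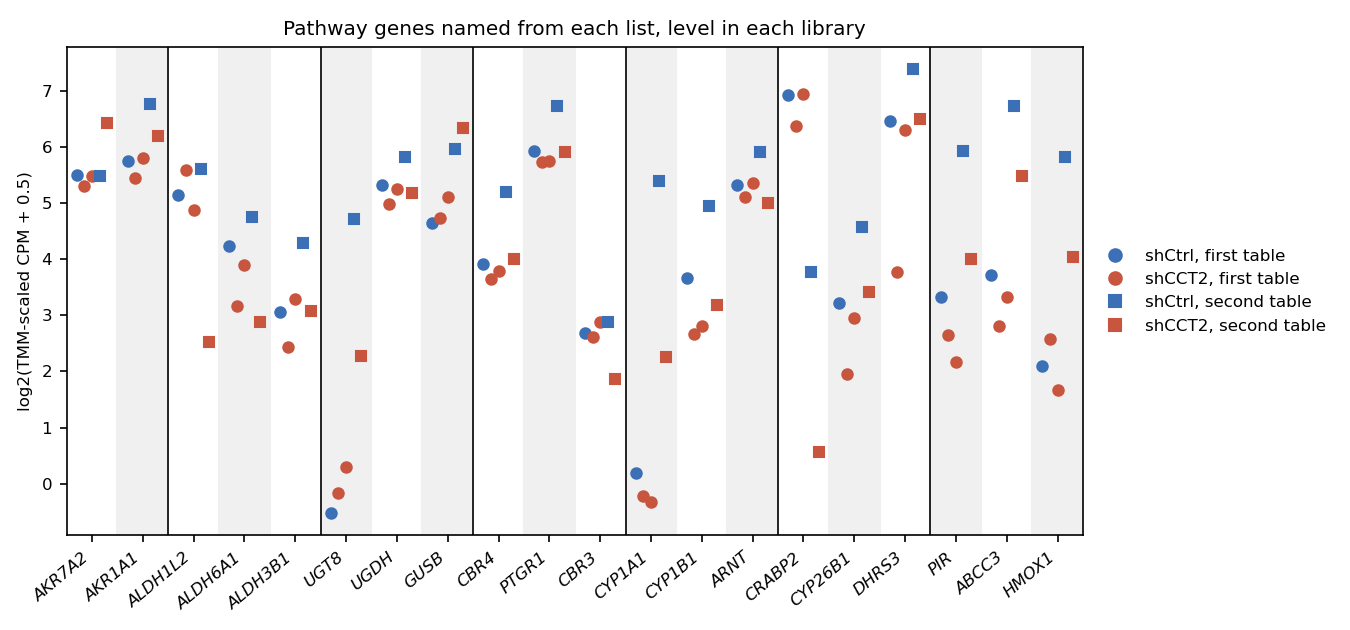
Level of the genes named from the 7 lists in each library, as log2 of TMM-scaled CPM plus 0.5; blue is shCtrl, red shCCT2, circles the first table, squares the second, and black lines part the lists. CYP1A1, PIR, ABCC3 and HMOX1 are highest in shCtrl 2, and AKR7A2 is highest in shCCT2 3, at 86.2 CPM.

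The genes whose 5 values ran most like those of AKR1C2, by Euclidean distance of centred log2 values over the 5 libraries, were CP (1.58), SRGN (2.05), OSCAR (2.10), CX3CL1 (2.47) and NID1 (2.65). CP was at 0.173 and 214 CPM in the controls and 0, 0.115 and 4.67 CPM with the knockdown. Among the group itself AKR1C1 ranked 7 (2.95) and ALDH3A1 ranked 27 (3.81), while AKR1B10, AKR1C3 and UGT1A6 ranked 187, 235 and 453. Nearest to ALDH1A3 were NR4A1 (0.220), ZNF516 (0.272), CLEC2B (0.326), CDK18 (0.333) and UST (0.359). NR4A1 was at 14.2 and 20.3 CPM in the controls and 5.13, 8.24 and 5.79 CPM with the knockdown. The genes of the first pattern were high in shCtrl 2, and ALDH1A3 and NR4A1 were lower in each knockdown library than in its control.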

How the data were processed

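The authors deposited expected counts per gene in 2 tables, named read counts per the file headers; 86.2% to 87.9% of values per library were whole. STAR 1.5.1, HTSeq and mm10 appear in the submitters' processing notes, although the identifiers are of human genes. Build, counter and strand setting of the tables are not given in the sources used here. Reads of overlapping or antisense genes may be mixed. Groups and tables came from the labels. Tables were joined on the gene identifier (763 and 1032 genes in 1 table alone were left out) and counts were rounded. The fit was edgeR 4.0.16 (R 4.3.3; TMM, filter by group, table as a term, Benjamini-Hochberg over 13123 genes), with DESeq2 1.42.0 as an alternative. The SE was derived from edgeR's test, as the absolute fitted change divided by the square root of the quasi-likelihood F statistic. Log2 changes of single libraries add 0.5 CPM, which understates changes of low genes. Fold intervals are exact (Clopper-Pearson, 95%) and cover counting error only.

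The 10 genes, the lists and the tests were chosen with earlier results of these data known. Each list names genes passing the threshold, otherwise its 3 largest fitted changes at a mean of at least 5 CPM; the genes nearest to AKR1C2 and ALDH1A3 number 5 each. The count of genes with all knockdown libraries below both controls, the neighbouring genes and the individual retinoid genes among the closing observations were chosen after the data were seen. The script was tested on simulated data. The deposited coverage along transcripts was not used.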

Additional observations from a re-analysis of the deposited data

Results flagged for a closer look

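The log2 changes of ALDH3A1 had opposite signs in the tables. Both knockdown libraries of the first table were above their control (log2 changes 0.43 and 0.10) and the knockdown library of the second table was below its own (-4.96), so that shCCT2 3 minus the mean of shCCT2 1 and 2 was -5.22. The values of the first table rest on 13 counts in the control and 20 and 14 with the knockdown, and the ratios of knockdown to control had counting intervals of 0.744 to 3.44 and 0.486 to 2.58, so no difference was detectable there. The difference was not tested, since the gene was picked partly for it and the second table holds 1 knockdown library.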

How the results depend on the processing

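Genes called lower numbered 0 with edgeR, 11 with DESeq2's Wald test and 0 to 2 when each library was left out in turn (2 without shCCT2 2), and DESeq2 called 2 higher. Over 115 fitted changes recomputed for the 10 genes, 9 genes kept their direction under every alternative that could be fitted. ALDH3A1 reversed to 0.42 with the first table alone and ranged from -5.16 to 0.42 with each library left out, the highest without shCtrl 2 or shCCT2 3. AKR1C2 ranged from -5.60 to -0.44 with a library left out, the latter without shCtrl 2. AKR1C2 could not be fitted with the first table alone, without shCCT2 3 or with at least 10 counts in every library, because it fell under the filter. AKR1C1 and AKR1B10 also fell under the filter of at least 10 counts in every library. With the first table alone AKR1C1 was at -0.79, from log2 changes of 0.01 in shCCT2 1 and -1.25 in shCCT2 2, the latter on 2 counts. With the replicate block in place of the table, 0 genes were called higher and 0 lower, and the fitted changes were -7.52 for AKR1C2, -1.41 for ALDH1A3 and -2.79 for UGT1A6. Deviations from the group mean correlated at 0.68 between the libraries of number 1 and at -0.60 between those of number 2, which lie in different tables. With 2 controls, their deviations are equal and opposite, so these values cannot tell whether the numbers pair the libraries. Of the 30 single-library changes, 1 changed sign with plain library totals and 0 with 0.1 or 2 CPM added. Summing AKR1C1, AKR1C2 and AKR1C3 was run in place of the 3 AKR1C2 changes, where shCCT2 1 went from 0.11 to -0.75. That sum was mostly AKR1C3, with 112 counts in shCtrl 1 and 51 in shCCT2 1. AKR1C1 and AKR1C2 summed without AKR1C3 changed by 0.07 in shCCT2 1. Counts of 2 to 20 for AKR1C1, AKR1C2, AKR1B10 and ALDH3A1 limit what the first table can show.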

Other observations

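The chromosomal neighbours of these genes, 3 tested genes on each side of each cluster plus SLC47A2 between ALDH3A1 and ALDH3A2, 37 in all, were read in the same way. In shCCT2 3, 6 of the 37 were over 2-fold below the control with 0.5 CPM added, as were 13.8% of all tested genes. In shCtrl 2, 5 of the 37 were over 2-fold above shCtrl 1, beside 17.3% of all tested genes. The neighbours' counts lay near these shares. Around the AKR1C cluster on chromosome 10, 3 of 6 neighbours were over 2-fold lower in shCCT2 3: PFKP, the platelet phosphofructokinase (-2.67), CALML3, a calmodulin of stratified epithelium (-1.86), and ASB13 (-1.29). Their control differences ran from -3.81 to 1.48 over the 6, against 9.76 for AKR1C2. Around UGT1A6, the AKR1B pair and ALDH2, 0 of 6 neighbours each were over 2-fold lower.

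The retinoid genes DHRS3 and STRA6 differed between the 2 knockdown libraries of the first table. DHRS3 was at 88.3 CPM in shCtrl 1, 13.1 CPM in shCCT2 1 and 78.4 CPM in shCCT2 2. STRA6, the retinol uptake receptor, was at 14.4, 1.47 and 14.3 CPM in the same libraries. ALDH1A3 ran the same way, at 173, 56.5 and 107 CPM. No test was possible between 2 single libraries.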
